A study of Columba livia with 12 samples.

Results

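The predicted miRNAs of the pigeon liver are 143 mature entries whose names carry the file's prefix for predictions and whose raw counts summed to 10 or more over 12 libraries. They were taken from 213 predicted entries in a table of 1039 mature names. A further 21 predicted entries had no count in any library and 49 had a total of 1 to 9. The numbers in these names are running numbers and give no family, so an entry is written here as predicted-miR-96-3p with the file's prefix replaced, and its number has no link to the known miRNA of the same number. The members were chosen by their name and by this raw total, the sum over all ages, so the total is given as a description only.

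The livers were those of white king pigeons, a domestic breed of Columba livia, sampled at ages of 1 day (1d), 14 days (14d), 28 days (28d) or 2 years (2y). The first 3 ages were squabs of mixed sex, the oldest were parent birds, and each age had 3 libraries from 1 pigeon each. For 1d replicates 2 and 3 the description gives an age of 2 and 3 days but the title and stage give 1d, which was used. No treatment or genetic change is labelled for any bird, and the labels do not say which sex each sequenced bird had. Small RNA was read as raw counts per mature name, with 3100273 to 9393075 counts per library. The liver markers fixed for the tissue check, miR-148a and miR-194, held between 5.74% and 25.7% of the counts in every library, and all 6 of their names had counts at each age.

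A miRNA is cut from a hairpin precursor by the enzymes Drosha and Dicer, and either arm of the hairpin (5p or 3p) can be loaded into an Argonaute protein to repress mRNAs. Usually one arm is kept and the other is degraded. Predicted entries are found from the reads by programs that look for stacks of reads on a foldable stretch of genome, and such lists are known to hold fragments of other RNAs beside true miRNAs. The program used here is not given in the sources, and sequences, seeds, genome positions and targets of these entries were not analysed here.

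The members were scarce. Together they had 25350 counts, which was 0.0346% of all counts in the table and 98.98% of the counts of all predicted entries. The median member had 51 counts over the 12 libraries. The lowest total was 10 and the highest 3215, and 52 members had fewer than 30 counts, 42 more than 100 and 7 more than 1000. The 10 most abundant held 59.8% of the members' counts. The 5 members with the lowest total inside the threshold (predicted-miR-127-3p, predicted-miR-9-5p, predicted-miR-40-5p, predicted-miR-44-5p and predicted-miR-97-3p) each had all 10 counts in 1 library. Of the 4 names just outside it, with 9 counts each, predicted-miR-73-5p and predicted-miR-103-3p had counts in 1 library and predicted-miR-43-5p and predicted-miR-80-5p in 2.

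The number of members found was highest in the livers of 14-day squabs and lower at 28 days and 2 years. A member was detected where it had at least 1 count. At 1d the libraries held 43, 53 and 54 members (50.0 ± 6.08, SD, n = 3). The 14d libraries held 63, 62 and 72 (65.7 ± 5.51), those of 28d 50, 41 and 24 (38.3 ± 13.2) and those of 2y 28, 46 and 31 (35 ± 9.64). All 3 libraries of 14d stood above every other library, while the ranges of 1d, 28d and 2y overlapped with one another.

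Library size did not follow this order. The 2y libraries had the largest mean total (8634044 ± 918246 counts) and the 1d libraries the smallest (4254549 ± 555205). When each library was reduced to the smallest total of 3100273 counts by exact calculation, the expected number at 1d was 49.3 ± 5.89. It was 64.3 ± 4.48 for 14d, 37.1 ± 11.8 for 28d and 32.2 ± 8.15 for 2y. The age with the most members was the same. The library with the fewest, 28d replicate 3, was also the smallest, and without it the 28d mean was 45.5. These numbers are counts over chosen members, without the same numbers over all names beside them, and were not tested.

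**Figure D1:**
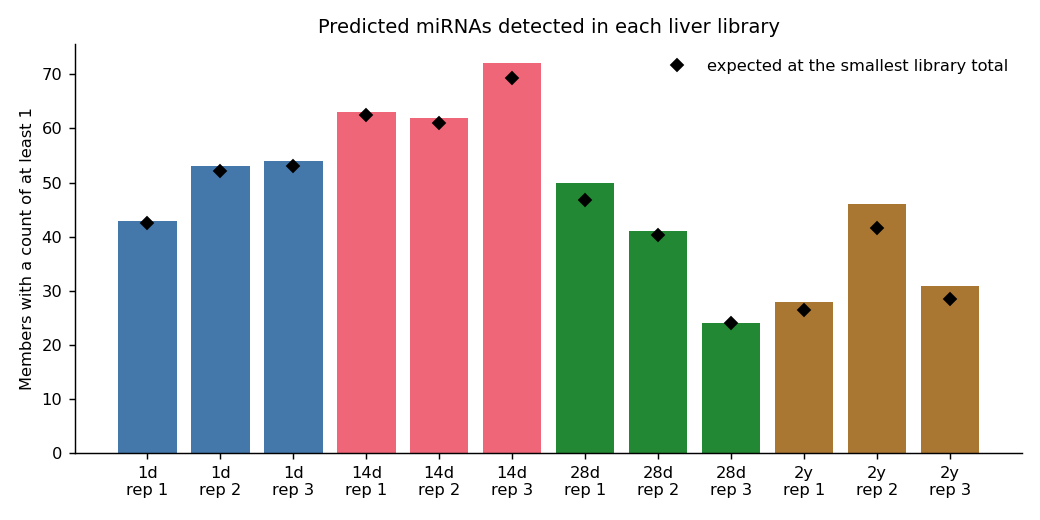
Number of predicted miRNAs with at least 1 count (y axis) in each of 12 liver libraries (x axis), with colours for the ages. Bars are the deposited counts and diamonds the number expected at 3100273 counts; the 14d bars stand at 63, 62 and 72, above all the others.

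Reproducibility between birds of one age was low. Of the 81 members seen at 1d, 23 were in all 3 libraries, 23 in 2 and 35 in 1. At 14d 104 were seen, 29 of them in all 3 libraries, 35 in 2 and 40 in 1. At 28d 73 were seen, 17 in all 3 and 48 in 1 only, and at 2y 57 were seen, 15 in all 3 and 24 in 1. Thus 65.8% of the members seen at 28d were each in only 1 of its 3 libraries, against 38.5% to 43.2% at the other ages. The smallest library of all, 28d replicate 3 with 24 members, is among these 3, and its part in this share was not tested. Altogether 97 of the 143 members (67.8%) were in all 3 libraries of no age.

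Libraries of the same age shared between 16 and 42 members. As a share of either library's list this was 36.0% to 82.1%, with a median of 60.7% over 12 pairs. Libraries of different ages shared 12 to 35 members, or 18.1% to 89.3% of a list, with a median of 54.8% over 54 pairs. The ranges overlapped, and all of these pairs draw on the same 12 libraries.

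Over the whole set, 44 members (30.8%) had counts in 1 library and 85 in 3 or fewer, and these 44 held 8.76% of the members' counts. At the other end, 23 members had counts in 9 or more libraries and held 42.1% of the counts. The 4 members found in all 12 libraries were predicted-miR-71-3p, predicted-miR-71-5p, predicted-miR-93-5p and predicted-miR-75-3p, of which predicted-miR-71-5p was named after its values were seen. The remaining classes of the table, cut at the same total of 10, show how this compares. Among 239 names with the prefix for conserved miRNAs 21.3% were in 1 library and 3.77% in all 12. Among 286 names already given to the pigeon 0 were in 1 library and 66.8% in all 12.

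The classes differ in abundance, with 168 pigeon names and 7 predicted ones at totals of 1000 or more. The gap to pigeon names remained at like totals. Within totals of 10 to 29 the median name was in 1 library among 52 predicted entries, in 2 among 106 conserved names and in 5 among 26 pigeon names, and 55.8%, 32.1% and 0% were in 1 library. Within totals of 100 to under 1000 the medians were 5.5, 5 and 12 libraries, and 2.78%, 10.9% and 53.6% were in all 12. Predicted and conserved entries therefore lay close together there, and both lay below pigeon names of the same range of totals. At totals of 1000 or more the medians were 11, 7.5 and 12 libraries, among 7 predicted, 12 conserved and 168 pigeon names. In that range 42.9%, 25% and 93.5% were in all 12, so predicted entries lay above conserved ones. No test was made of these differences.

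**Figure D2:**
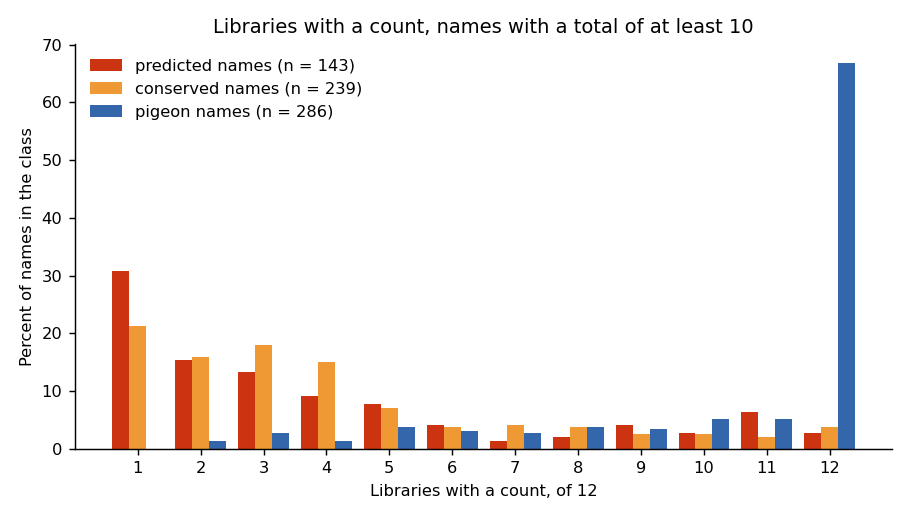
Percent of names in a class (y axis) by the number of libraries, of 12, with a count (x axis), for names with a total of at least 10. Predicted names are most often found in 1 library (30.8%), whereas 66.8% of pigeon names are found in all 12.

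Many zeros fell between high counts. A value was examined where the other 2 libraries of the same age each had at least 10 counts of that member, which held for 203 values. Of these 44 (21.7%) were 0 and 6 (2.96%) were 1 to 4, and the zeros touched 37 members. The conserved names gave 41 zeros in 232 values (17.7%) and the pigeon names 30 in 2328 (1.29%). The classes were not matched for abundance here, and 168 pigeon names but 7 predicted ones had totals of 1000 or more. Predicted-miR-28-3p shows the pattern. It had 452 and 393 counts in 2y replicates 2 and 3 and 0 in 2y replicate 1, and its other arm was also at 0 there. Predicted-miR-137-3p had 24 and 16 counts in 14d replicates 1 and 2 and 0 in replicate 3, and 23 and 69 counts in 2y replicates 1 and 2 and 0 in replicate 3, with both arms at 0 each time. By library such zeros numbered 8 each in 14d replicates 2 and 3, 6 each in 1d replicate 1 and 14d replicate 1, and 0 in 28d replicates 1 and 2 and 2y replicate 2. For a zero, up to 3 counts remain possible from counting error alone, or 0.326 to 1.90 CPM (counts per 1000000 counts, on the TMM scale used below).

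**Figure D3:**
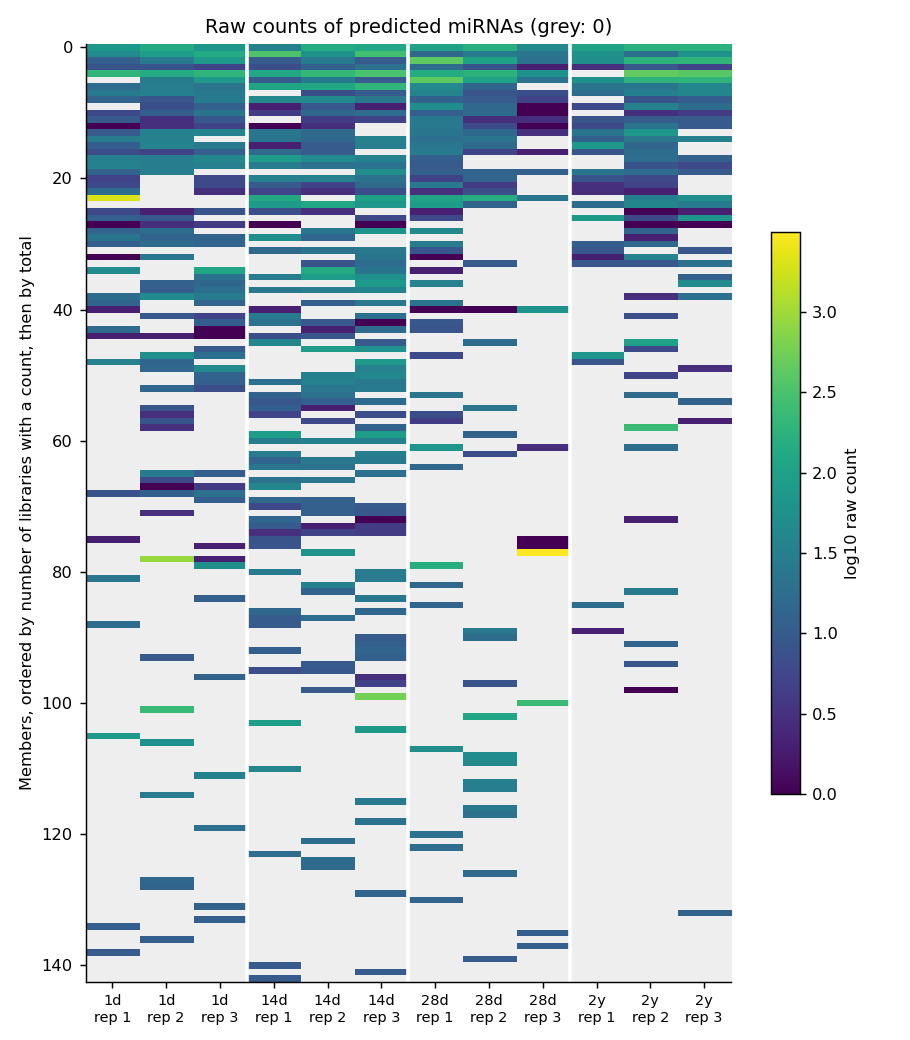
Raw counts of the 143 members (rows) in the 12 libraries (columns), on a log10 colour scale with 0 in grey. The rows run from the 4 members found in all 12 libraries at the top to the 44 found in 1 at the bottom, and grey gaps break the upper rows.

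In some libraries 1 entry made up much of the summed level. The most abundant member held from 11.3% (14d replicate 2) to 84.9% (28d replicate 3) of the members' counts in a library. At 1d the members held 0.0806, 0.0499 and 0.0321% of the counts in replicates 1, 2 and 3. At 14d they held 0.0529, 0.0335 and 0.0458%, at 28d 0.0252, 0.0236 and 0.120%, and at 2y 0.00942, 0.0216 and 0.0160%. The value of 28d replicate 3 stood far above its age (95% Wilson interval 0.116 to 0.124%), and without it the 28d mean was 0.0244% instead of 0.0562 ± 0.0552%.

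Single members made the highest of these values. Predicted-miR-96-3p, the member with the most counts, had 3155 counts in 28d replicate 3, 60 in 14d replicate 2 and 0 in the other 10 libraries, and made up 84.9% (95% Wilson interval 83.7 to 86.0%) of the members' counts in that one library. Predicted-miR-107-5p had 1991 counts in 1d replicate 1 and 0 in the other 1d libraries, with 128, 0 and 100 at 14d, 112, 152 and 23 at 28d, and 0, 33 and 55 at 2y. Predicted-miR-31-5p had 898 counts in 1d replicate 2 and 2 in 1d replicate 3 only. Predicted-miR-18-3p had all of its 592 counts in 14d replicate 3.

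With the most abundant member of each library taken out, a setting chosen after the data were seen, the 1d share was 0.0280 ± 0.00250%. That of 14d was 0.0370 ± 0.00710%, that of 28d 0.0197 ± 0.00137% and that of 2y 0.0121 ± 0.00424%. The 28d libraries then lay together, between 0.0182 and 0.0206%. The 28d mean then lay below those of 1d and 14d, where the full sum had put it above them. In all, 88 members (61.5%) had at least 50% of their CPM in 1 library, 23 of them in 14d replicate 1 and 13 in 28d replicate 2. The 44 members with counts in 1 library and the 22 with counts in 2 must reach this share. CPM are on the TMM scale, where equal counts weigh more in a library with a smaller scaled total. The same number over all names is not given here.

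**Figure D4:**
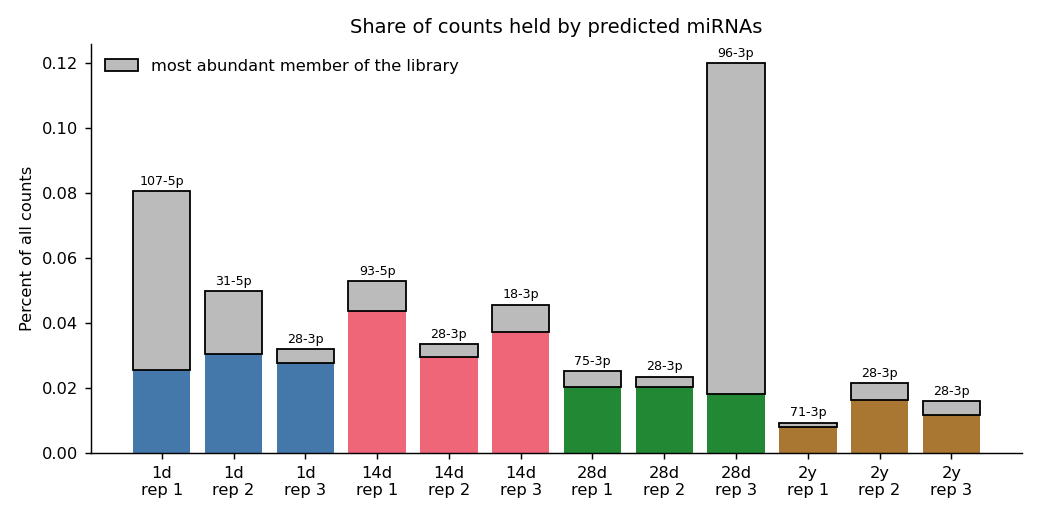
Percent of all counts held by the members (y axis) in each library (x axis). The grey part is the library's most abundant member, named above the bar by number and arm; it takes the bar of 28d replicate 3 to 0.120%.

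The steadiest entries were those of one hairpin, number 71. Predicted-miR-71-3p stood at 10.5, 18.2 and 9.87 CPM at 1d, 7.17, 16.2 and 13.6 at 14d, 12.1, 53.3 and 27.8 at 28d, and 19.0, 26.3 and 32.6 at 2y. On this TMM scale the 2y libraries lay above the 1d and 14d ones, and those of 28d spread across both. In raw counts 2y replicate 1 had 103, below the 137 of 1d replicate 2 and the 144 of 14d replicate 2. Both of these libraries had smaller totals, so the order depends on the scaling. The difference over the ages did not pass (quasi-likelihood test of edgeR, Benjamini-Hochberg adjusted over 345 names, adjusted p = 0.117). Its other arm, predicted-miR-71-5p, was also found in all 12 libraries at 0.554 to 2.63 CPM (edgeR adjusted p = 0.441).

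Predicted-miR-28-3p stood at 27.7, 18.8 and 26.8 CPM at 1d, 26.0, 24.4 and 33.7 at 14d, 16.7, 59.6 and 39.8 at 28d, and 0, 69.6 and 73.7 at 2y (edgeR adjusted p = 0.893). The spread inside 2y was wider than any step between ages. Predicted-miR-93-5p had 6.78, 11.7 and 19.5 CPM at 1d, 69.2, 7.07 and 30.7 at 14d, 1.74, 9.22 and 15.2 at 28d, and 11.5, 2.93 and 11.6 at 2y (edgeR adjusted p = 0.166). Its 14d mean rests on replicates 1 and 3.

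The patterns most like those of the 3 members with the highest totals were looked up among all tested names by Pearson's r of log2(CPM + 1) over the 12 libraries. For predicted-miR-28-3p the nearest was miR-18a-5p (r = 0.78), then the conserved name miR-10399-5p (0.61) and miR-204-5p (0.57). For predicted-miR-107-5p they were the conserved names miR-9265-3p (0.62) and miR-10399-5p (0.52) and predicted-miR-71-5p (0.50). For predicted-miR-96-3p they were the conserved name miR-2404-2-5p (0.76), miR-216a-3p (0.74) and miR-1329-5p (0.73), and there the measure follows 28d replicate 3 and 14d replicate 2, the only libraries with a count. Single libraries weigh heavily for the other members too. Predicted-miR-28-3p was at 0 in 2y replicate 1 alone, and predicted-miR-107-5p had 281 CPM in 1d replicate 1 and 0 in the other 1d libraries. These are descriptions over shared libraries.

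Both arms of a number were members for 29 running numbers, while 85 numbers had 1 arm, 41 of them the 5p and 44 the 3p. Over these 29 numbers and 12 libraries, both arms had a count in 136 of 348 cases, neither in 156 and 1 arm only in 56. The 3p arm had the larger total for 17 numbers, the 5p for 10, and 2 were equal. The arm with the larger total was the higher one in every library with a count for 10 of the 29.

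Numbers 28, 71, 75 and 114, the 4 pairs with the highest totals, had the same major arm in every library with a count, which was 12 libraries for 71 and 75 and 11 for 28 and 114. Predicted-miR-28-3p had 2418 counts against 111 of the 5p arm, a ratio of 21.8, predicted-miR-71-3p 1344 against 105 (12.8), predicted-miR-75-3p 1142 against 84 (13.6) and predicted-miR-114-3p 1130 against 158 (7.15). Other numbers changed arm between birds. Number 31 had its 5p arm in 1d replicates 2 and 3 and its 3p arm, with 24 and 29 counts, in 1d replicate 1 and 14d replicate 3, never both together. This was so for 4 of the 29 numbers.

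Predicted-miR-75-3p and predicted-miR-114-3p had identical counts in 11 of 12 libraries and differed only in 1d replicate 1, with 12 and 0. Their 5p arms differed, with totals of 84 and 158. This pair was named after its values were seen, and both 3p entries are uncertain, since the same reads may have been counted for each. They count as 2 members below but carry 1 pattern.

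Whether single members differed between ages was tested in a fit over the whole table. Counts were scaled by the trimmed mean of M values (TMM), names with too few counts were dropped by edgeR's filter, and 345 names were tested, 53 of them members. The other 90 members were not tested, among them all 44 found in 1 library and the most abundant one, predicted-miR-96-3p. Of the 53, 27 had 0 counts throughout at least 1 age. A member can pass the filter through the age where it is high, so the share called among those tested says nothing of the untested ones. For such a member the p-value is a description and not support for that age.

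Over the 4 ages 8 of the 53 tested members passed (edgeR adjusted p under 0.05), against 45.2% of all 345 names. This is a share of 15.1%, below that background, and 14 of 56 tested conserved names and 134 of 236 pigeon names (56.8%) passed. The classes were not matched for abundance, with 168 pigeon names but 7 predicted ones at totals of 1000 or more. The part of low counts in the lower share was not tested. From 1d to 14d 7 members (13.2% of the 53) passed, against 31.0% of all names. Of these members 5 rose (16.8% of all names did) and 2 fell (14.2%). From 14d to 28d 5 members (9.43%) passed, against 28.1% of all names, of which 2 members rose (15.7% of all names) and 3 fell (12.5%). Between 1d and 28d 2 members (3.77%) passed, against 29.6% of all names. Of these members 2 were higher (19.4% of all names) and 0 lower (10.1%) at 28d. In this pair 10 members had an unadjusted p under 0.05 in either direction. DESeq2 gave 3 higher and 4 lower there, with 37.1% of all names called, and limma voom 3 and 3, with 31.6%. Between 1d and 2y 2 members (3.77%) passed, against 27.5% of all names, 1 higher (14.5% of all names) and 1 lower (13.0%) at 2y. Between 14d and 2y 5 members (9.43%) passed, against 29.6% of all names, 2 higher (13.3% of all names) and 3 lower (16.2%) at 2y. From 28d to 2y 0 members and 0% of all names passed, with 2 members at an unadjusted p under 0.05 and 0 members by DESeq2, which called 18 of the 345 names, or by limma voom, which called 0.

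Scaling to the total count alone moved the median log2 fold change over the 345 names by -0.31 from 1d to 14d and by -1.01 from 14d to 28d. Against 1d the shift was -1.30 at 28d and -1.31 at 2y, and from 14d to 2y it was -1.03. Members called then split 1 higher and 9 lower for 28d against 14d, 0 and 8 for 2y against 14d, 3 and 2 for 14d against 1d, and 1 and 4 for 28d or 2y against 1d. The shares of all names called with the total count were 33.6% from 14d to 28d, 40% from 14d to 2y, 22.6% from 1d to 14d, 28.4% from 1d to 28d and 35.4% from 1d to 2y. Scaling by relative log expression shifted the median by -0.25 from 1d to 14d, -0.30 from 1d to 28d, -0.16 from 1d to 2y and 0.15 from 28d to 2y. It gave 1 higher and 4 lower for 28d against 14d, 4 and 3 for 14d against 1d, and 1 and 1 for 28d against 1d, beside 28.4%, 30.7% and 26.4% of all names. No called member turned its direction under either scaling. Where 1 age of a pair was at 0 throughout, the direction could not turn, so this does not measure steadiness there.

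Each call was also examined with 1 library left out, with the filter run again (385 to 410 names) and, as a setting added after the data were seen, with the same 345 names. Whether an entry was counted in every library, or only in those where it was predicted, is not known here. A 0, and each bound drawn from one, is therefore the table's value and may not mean that the RNA was absent. Each bound on a fold divides the observed mean of the higher age by the mean floor of the age at 0. It covers neither the spread between birds nor the counting error of the higher age.

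Predicted-miR-16-3p had no counts in 1-day livers and had counts at every later age. It had 0 counts in all 3 libraries of 1d, then 15.6, 13.8 and 7.60 CPM at 14d, 10.3, 4.28 and 0 at 28d, and 3.14, 6.16 and 5.25 at 2y. The 14d and 2y libraries all lay above those of 1d, and at 28d replicate 3 was at 0 too. With a floor of 3 counts per library the level was at least 29.8-fold higher at 14d than at 1d, at least 11.8-fold at 28d and at least 11.7-fold at 2y (edgeR adjusted p = 0.00487, 0.00589 and 0.00630, and 0.0115 over the ages). Each of these 4 calls held whichever 1 of the 12 libraries was left out (adjusted p 0.000592 to 0.0490), with the filter run again or with the same names, and under every other setting that gave a value. The 6 libraries alone gave none for 28d against 1d, where the filter dropped it. In 28d replicate 3, where the 3p arm was at 0, predicted-miR-16-5p had 63 counts, against at most 2 in any other library.

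Predicted-miR-75-3p was lower on average at 1d and 14d than at 28d and 2y. It stood at 1.70, 3.85 and 10.6 CPM at 1d, 2.05, 3.26 and 1.09 at 14d, 48.9, 34.2 and 12.6 at 28d, and 10.2, 28.2 and 36.0 at 2y. All 28d and 2y libraries lay above all 14d libraries, and those of 2y overlapped with 1d. The rise from 14d to 28d was 14.9-fold (log2 fold change 3.90 ± 0.84 SE, edgeR adjusted p = 0.00619), a call that held without any 1 library in either way (adjusted p 0.00401 to 0.0490). The fold was 11.5 for 2y against 14d (adjusted p = 0.0112) and 5.96 for 28d against 1d (adjusted p = 0.0307). The difference of 2y against 1d did not pass (log2 fold change 2.20 ± 0.78 SE, edgeR adjusted p = 0.0606). The call of 2y against 14d ended without 14d replicate 1 or 3 (adjusted p up to 0.0545) and with the total count alone. The call of 28d against 1d ended without 1d replicate 1 or 2, 14d replicate 1, 28d replicate 1 or 2, or 2y replicate 2 or 3 (adjusted p up to 0.178). Over the ages the adjusted p was 0.00802, and the call ended without 14d replicate 1 (adjusted p 0.0516) and with the total count alone. With the same names, 2y against 14d and the call over the ages held whichever library was left out (adjusted p up to 0.0453 and 0.0334), and 28d against 1d ended when replicate 1 or 2 of either age was left out.

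Predicted-miR-114-3p, with the same counts in 11 libraries, was called only for 28d against 14d (14.9-fold, edgeR adjusted p = 0.0449). That call held without 1d replicate 1 or 3 and ended without any other 1 library (adjusted p up to 0.171), and it ended with either other scaling. With the same names it held also without 28d replicate 3 or 2y replicate 1. The 2 entries differ only in 1d replicate 1, with 12 and 0 counts, a library outside this pair of ages. The difference in steadiness between their calls for 28d against 14d thus rests on that 1 value. Both calls held when that library was left out. Marker lists differed between 14d and 28d. The liver list held 5.74 to 6.46% of counts at 14d and 17.7 to 25.7% at 28d. The leukocyte list (miR-142, miR-146 and miR-155, 11 names, all with counts at 28d) held 1.53 to 2.26% of counts at 14d and 2.20 to 8.99% at 28d, and the mesenchymal list (12 names of the miR-199, miR-214, miR-145 and miR-143 families, 10 with counts at 28d) 3.85 to 5.52% and 7.59 to 13.2%. At 1d, where both entries were low on average, the liver list held 16.3 to 20.5%, the leukocyte list 2.67 to 4.97% and the mesenchymal list 7.79 to 9.47%. At 2y, where both entries were high on average, these were 15.8 to 18.1%, 2.67 to 3.20% and 12.1 to 19.1%. The part of these lists in the rise was not tested.

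Predicted-miR-121-3p was highest at 14d. Its libraries stood at 2.40, 3.98 and 3.06 CPM at 1d, 24.0, 13.7 and 21.6 at 14d, 5.22, 4.61 and 0 at 28d, and 4.25, 3.54 and 7.31 at 2y. No library of another age reached those of 14d. The rise from 1d was 6.24-fold (log2 fold change 2.64 ± 0.88 SE, edgeR adjusted p = 0.0441, and 0.0470 over the ages). Both calls ended without any 1 library but 28d replicate 3 (adjusted p up to 0.206), and with relative log expression. This was so with the same names too, except that the rise held also without 28d replicate 2. The rise, though not the call over the ages, also ended with the total count alone.

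Some members were seen at 14 days alone. Predicted-miR-81-5p had 30, 35 and 33 counts there (6.14, 3.93 and 3.58 CPM) and predicted-miR-70-5p 14, 26 and 28 (2.87, 2.92 and 3.04 CPM), and both were at 0 in the other 9 libraries. Predicted-miR-81-5p was at least 11.0-fold higher at 14d than at 1d, at least 4.23-fold than at 28d and at least 8.65-fold than at 2y (edgeR adjusted p = 0.0236, 0.0303 and 0.0242, and 0.0131 over the ages). For predicted-miR-70-5p the bounds were 7.13-, 2.73- and 5.59-fold (adjusted p = 0.0278, 0.0383 and 0.0292, and 0.0176 over the ages). Both entries could pass edgeR's filter only through the 14d libraries, so these p-values are descriptions and not support for 14d. The floor behind these bounds was 0.348 to 1.90 CPM at 28d and 0.398 to 0.424 CPM at 1d.

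The calls over the ages of both entries ended without any 1 of the 14d libraries (adjusted p up to 0.0783). All calls of both ended with DESeq2. The pairwise calls ended without any 1 library of the ages compared. The call of predicted-miR-70-5p for 28d against 14d ended without any 1 of the 12, and that of predicted-miR-81-5p also without 2y replicate 3. With the same names the call of predicted-miR-70-5p held in 7 of the 12 fits and ended without a 14d library or 28d replicate 1 or 2. Each pairwise call of predicted-miR-81-5p then held in 8 of 12, and ended without a 14d library or replicate 2 of the age compared. The fitted log2 fold changes stayed within 6.97 to 7.31 in size for predicted-miR-70-5p and 7.55 to 7.93 for predicted-miR-81-5p. In each of these contrasts 1 age was at 0 throughout, so this narrow range does not measure steadiness. The size is given only by the bounds above. In all 24 members were detected at 14d and at no other age, 5 of them in all 3 libraries, 5 in 2 and 14 in 1. Predicted-miR-100-5p had 6, 12 and 10 counts and belongs to the 5, with its other arm predicted-miR-100-3p at 3, 5 and 4 and predicted-miR-92-3p at 10, 2 and 4 counts, these last 2 beyond the naming rule for 14d. At 1d 15 members were seen at no other age, 1 of them in all 3 libraries, at 28d 16 and 0, and at 2y 1 and 0. The same counts over all names are not given here, so these numbers are not read as particular to the predicted entries.

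Some markers of other tissues also peaked at 14d, where the liver list was lowest, at 5.74 to 6.46% of counts against at least 15.8% in any library of another age. The neural list (miR-9 and miR-124, 4 of 5 names with counts) held 0.0648 to 0.0900% of counts at 14d and at most 0.0454% at any other age, and the pancreas list (miR-375, miR-216 and miR-217, 7 of 7 names) 0.0469 to 0.0746% and at most 0.0380%. The epithelial list (miR-200 and miR-205, 10 of 12 names) held 0.139 to 0.390% and at most 0.106%. The muscle list (7 of 9 names) overlapped between ages, with 0.271 to 0.540% at 14d and 0.102 to 0.373% at 1d. The endothelial list was lower at 14d (2.12 to 2.69%) than at 1d (2.98 to 5.09%). The mesenchymal list was also lower at 14d, with 3.85 to 5.52% against at least 7.59% in any library of another age. The leukocyte list had its lowest mean at 14d (1.88%), though its range overlapped with that of 28d. Their part in the members of 14d was not tested, and in whole liver a change in cell number and a change in RNA per cell cannot be told apart.

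Other members called at 14d were low. Predicted-miR-65-3p had 0 counts at 1d and 3.28, 2.47 and 2.72 CPM at 14d, at least 6.83-fold higher (edgeR adjusted p = 0.0344), with 1.04, 0 and 0 at 28d and 1.66, 0 and 1.69 at 2y. Predicted-miR-60-3p had 0, 1.33 and 2.64 CPM at 1d, 5.12, 3.48 and 4.13 at 14d and 0 in all libraries of 28d and 2y. It was at least 3.94-fold lower at 28d and at least 8.06-fold lower at 2y than at 14d (edgeR adjusted p = 0.0450 and 0.0344, and 0.0354 over the ages). Predicted-miR-65-3p could pass edgeR's filter only through the 14d libraries, and predicted-miR-60-3p could not pass without them. The p-values of both are therefore descriptions and not support for 14d.

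These calls lay near the threshold. The call of predicted-miR-65-3p held only without 28d replicate 1 or 2 or 2y replicate 2, and ended without each of the other 9 (adjusted p up to 0.112). For predicted-miR-60-3p, 28d against 14d and the call over the ages held only without 1d replicate 1, and 2y against 14d only without 1d replicate 1 or any 1 of 28d (adjusted p up to 0.121). The total count alone also ended the call of predicted-miR-65-3p. With the same names the call of predicted-miR-65-3p ended without any 1 of the 1d or 14d libraries only, and those of predicted-miR-60-3p held in 4 (28d against 14d), 5 (2y against 14d) and 5 (over the ages) of 12 fits. These ended without any 1 of the 14d libraries or 1d replicate 2 in each case. They also ended without 1d replicate 3 (28d against 14d and over the ages), any 1 of 28d (28d against 14d), any 1 of 2y (2y against 14d), and 28d replicate 1 or 2y replicate 3 (over the ages). The fitted log2 fold change of predicted-miR-65-3p stayed between 6.89 and 7.25, and that of predicted-miR-60-3p between -7.83 and -7.46, over all of these fits. Here too 1 age of each contrast was at 0 throughout, so these ranges do not measure steadiness, and the bounds above give the size.

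At 1 day the entries predicted-miR-39-5p and predicted-miR-46-5p stood out. Predicted-miR-39-5p had 2.40, 6.50 and 3.75 CPM at 1d, 0 in all libraries of 14d and 28d, and 0, 0.462 and 3.56 at 2y. It was at least 9.91-fold lower at 14d than at 1d (edgeR adjusted p = 0.0385, and 0.0428 over the ages). Its other arm, predicted-miR-39-3p, had 80 counts in 14d replicate 3 and none elsewhere. Predicted-miR-46-5p had 8, 12 and 20 counts at 1d (1.13, 1.59 and 2.78 CPM) and 0 in the other 9 libraries. It was at least 4.31-fold lower at 14d and at least 3.49-fold lower at 2y (edgeR adjusted p = 0.0397 and 0.0489, and 0.0297 over the ages). Predicted-miR-46-5p could pass edgeR's filter only through the 1d libraries, and predicted-miR-39-5p could not pass without them. The p-values of both are therefore descriptions and not support for 1d.

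The calls of both ended without any 1 of the 1d libraries. For 14d against 1d predicted-miR-39-5p was also lost without any 1 library of 14d or 2y replicate 2 (adjusted p up to 0.123), and its call over the ages held only without 2y replicate 1 or 3. For predicted-miR-46-5p, 14d against 1d held only without 28d replicate 1 and 2y against 1d only without 14d replicate 1 (adjusted p up to 0.162), and the call over the ages also ended without 2y replicate 1 or 2. DESeq2 ended all 3 of its calls. Tested on the same names, the calls of predicted-miR-46-5p over the ages and for 14d against 1d held in 9 and 6 of 12 fits and ended only without libraries of 1d, or of 14d for the pair. That for 2y against 1d held in 4, and ended without any 1 of 1d or 2y or 14d replicate 2 or 3. Those of predicted-miR-39-5p held in 5 (14d against 1d, lost without the same libraries as before) and 4 (over the ages, now held also without 28d replicate 1 or 3).

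Predicted-miR-155-5p ran the other way at 14d. It had 3.96, 4.25 and 3.61 CPM at 1d, 0, 0.786 and 1.09 at 14d, 4.29, 2.63 and 4.42 at 28d, and 3.14, 4.93 and 7.50 at 2y, so that every 14d library lay below all the others. It was 7.85-fold higher at 2y than at 14d (log2 fold change 2.97 ± 0.95 SE, edgeR adjusted p = 0.0380), did not pass over the ages (adjusted p = 0.107), and its call ended (adjusted p up to 0.126) unless the library left out was 14d replicate 1 or 28d replicate 1. It held also without 1d replicate 3, or 28d replicate 2 or 3, with the same names. It ended with the total count alone and with the 6 libraries alone. Its other arm, predicted-miR-155-3p, was also lowest on average at 14d, with 0, 0.449 and 0.543 CPM there, but overlapped with 1d at 1.41, 0.398 and 1.25 CPM. It did not pass over the ages (edgeR adjusted p = 0.242).

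Apart from predicted-miR-16-3p and predicted-miR-75-3p, every call above ended with no filter and with the filter at a total of 10. The call of predicted-miR-81-5p over the ages held with the filter at 10, and that of predicted-miR-75-3p for 28d against 1d ended under both, under either other scaling and with the 6 libraries alone.

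**Figure D5:**
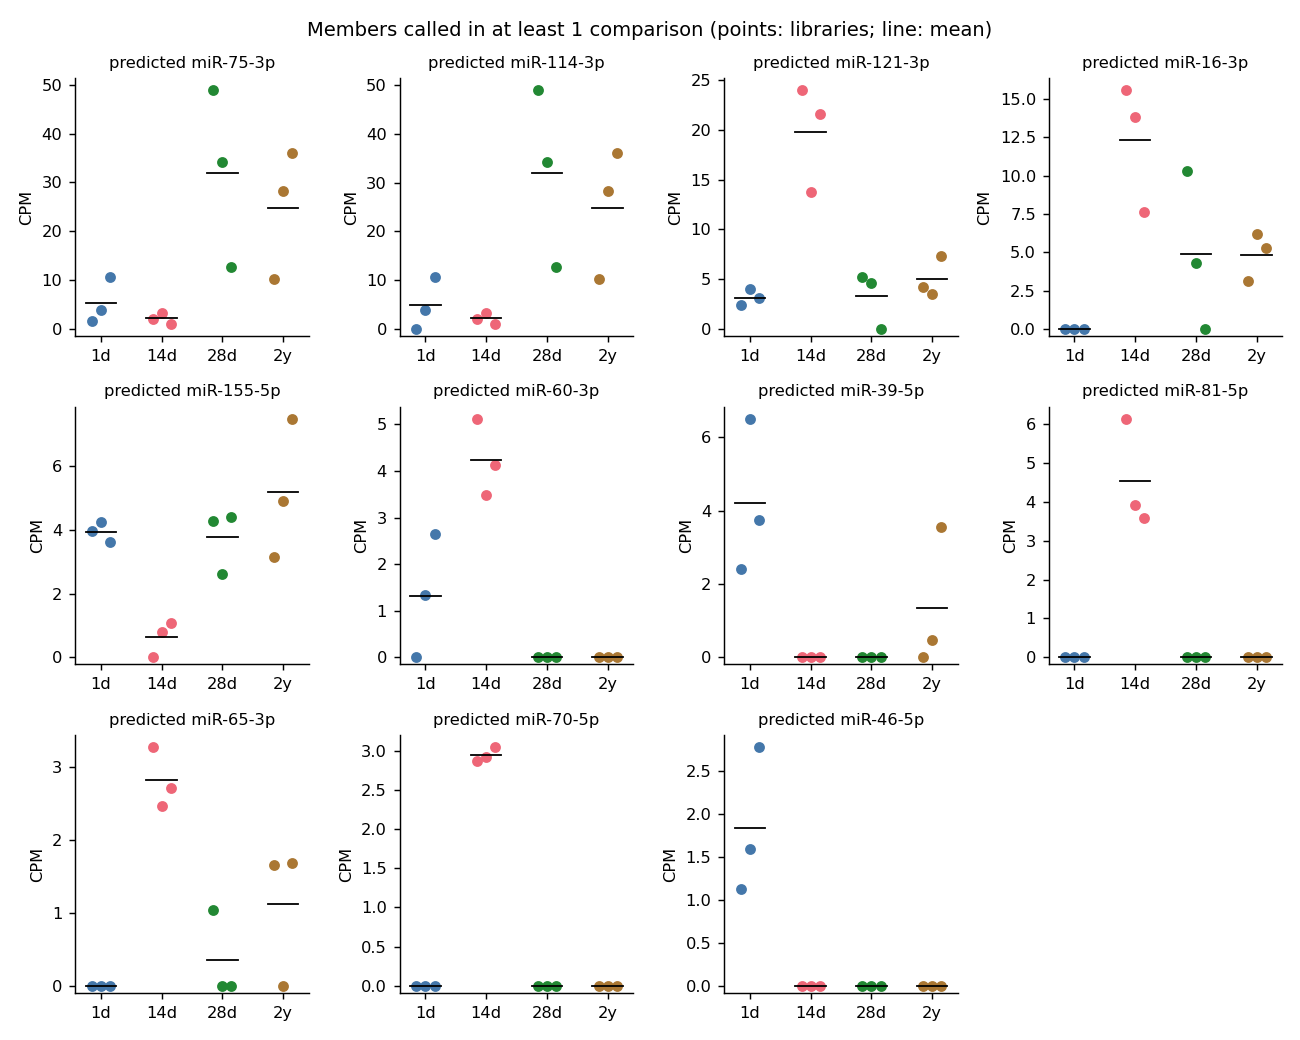
CPM on the TMM scale (y axes, linear and scaled for each panel) of the 11 members called in at least 1 comparison, by age (x axes). Points are libraries and lines the mean of 3; predicted-miR-16-3p is at 0 in every 1d library and predicted-miR-81-5p at 0 in all libraries but those of 14d.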

How the data were processed

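The deposited table gives whole-number read counts of mature miRNAs in 12 libraries, per the file headers, and each column matches the title of 1 library. Per the labels' protocols, RNA of 10 to 45 nt was selected and 50 bp single-end reads were made. The submitters' processing notes name Bowtie. Its version and role, the genome build, the prediction program and the treatment of reads matching several entries were not given in the sources used here. Every row names a miRNA. Libraries of one age differed far beyond counting noise, with a chi-square of at least 406 per degree of freedom, so none was taken for a repeat. Replicates are birds, and intervals and limits from counts cover counting error only.

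Counts were fitted in edgeR 4.0.16 (R 4.3.3) with filterByExpr, TMM factors (0.512 to 1.96), 1 mean per age and robust quasi-likelihood for the 12 libraries together (common biological coefficient of variation 0.807). The p-values were adjusted by Benjamini-Hochberg over all 345 tested names at a threshold of 0.05. CPM are counts per 1000000 counts of the TMM-scaled total. DESeq2 1.42.0 and limma 3.58.1 (voom) were alternatives. The fit was checked on simulated counts. Members and lists were chosen with earlier results of these data known.

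Members named are the 10 of highest total, those called, up to 3 per age found in all its libraries and no others, those at the edge of the threshold, arm pairs of the highest totals and the nearest patterns. Some running numbers are not reported by name here. Entries at the edge of the threshold beyond 3 on each side, predicted-miR-137-3p, predicted-miR-71-5p, predicted-miR-100-3p, predicted-miR-92-3p, the minor arms of called members and the pair of predicted-miR-75-3p and predicted-miR-114-3p were added after their values were seen.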

Additional observations from a re-analysis of the deposited data

How the results depend on the processing

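Counts of called members are given in the order 4 ages, 1d to 14d, 14d to 28d, 1d to 28d, 1d to 2y and 14d to 2y, and were 8, 7, 5, 2, 2 and 5. They were 2, 1, 1, 1, 1 and 1 with no filter, 3, 1, 1, 1, 1 and 1 with the filter at a total of 10, 15, 14, 11, 6, 4 and 8 with limma voom, 10, 7, 8, 7, 5 and 9 with DESeq2, and 11, 5, 10, 5, 5 and 8 with the total count alone. With the 6 libraries alone they were 8, 8, 3, 3 and 8 for the 5 pairs, with 23 to 38 members tested. For 28d against 1d that fit called 0 higher and 3 lower, beside 27.6% of all names, where the main fit called 2 and 0. For 28d against 14d it called 2 higher and 6 lower, beside 26.9%, where the main fit called 2 and 3. Leaving out 1 library gave 2 to 7, 1 to 7, 1 to 4, 1 to 3, 1 to 2 and 0 to 5 with the filter run again, and 3 to 8, 1 to 8, 1 to 6, 1 to 4, 1 to 3 and 1 to 7 with the same names. Over these comparisons the share of all names called was 27.5 to 45.2% (345 names). It was 5.12 to 10.2% with no filter (937), 10.2 to 17.7% with the filter at 10 (668), 29.6 to 54.2% with limma voom, 35.1 to 51.9% with DESeq2, 22.6 to 51.6% with the total count, 26.9 to 49.2% with the 6 libraries and 20.3 to 35.1% with the block. With 1 library left out it was 12.5 to 36.8% with the filter run again and 16.5 to 48.4% with the same names. For 2y against 28d every setting gave 0 members. The replicate block gave 2, 1, 2, 1, 1 and 1. Libraries with the same number did not deviate together (5 of 18 correlations over 0.1, median 0.0088, against -0.037 for other numbers), so the numbers are taken as names only. Of 919 single-member values under the alternatives 511 kept their call, 408 lost it and 0 turned direction. Calls over the 4 ages have no direction, and where 1 age of a pair was at 0 throughout the direction was fixed in advance. For both kinds the 0 does not measure steadiness. The no-filter and filter-at-10 fits test more names. Otherwise the cause of these shifts was not tested.

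Detected members per library were 42.7 at 1d, 56.7 at 14d and 24.7 at 2y at a minimum of 1 CPM, and at 14d 73.0 with a member total of 5 and 57.0 with 20. Without 1 library the 1d mean ran from 48.0 to 53.5, that of 14d from 62.5 to 67.5, that of 28d from 32.5 to 45.5 and that of 2y from 29.5 to 38.5. Members in all libraries of an age were 29 to 34, 40 to 42, 17 to 24 and 16 to 24 when 1 library was left out, and 11 at 28d with a count of at least 3. Leaving out 1 library asks for counts in fewer libraries, so it cannot give less than the main 23, 29, 17 and 15. On the TMM scale the share was 0.0307% for 1d, 0.0324% for 14d, 0.102% for 28d and 0.0237% for 2y, so that 1d lay below 14d. It was 0.0280% for 1d without each library's top member. Without 1 library the 1d share ran from 0.0410 to 0.0652%, that of 14d from 0.0396 to 0.0494%, that of 28d from 0.0244 to 0.0726% and that of 2y from 0.0127 to 0.0188%. Members with most of their CPM in 1 library were 55 with a member total of 20, a threshold that leaves fewer members in all, and 79 to 95 without 1 library. The median member had 51 counts over 12 libraries, and the link of depth to the calls was not tested.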
